A study of Mus musculus with 6 samples.

Results

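The 9 genes described here, Sqle, Lss, Cyp51, Msmo1, Nsdhl, Hsd17b7, Ebp, Sc5d and Dhcr7, encode enzymes that turn squalene into cholesterol. They were taken by name from the pathway, with earlier results of these data known, and are 9 of the 18193 genes that the arrays measured with at least 1 probe set annotated to a single gene. Between them they have 19 such probe sets, and each gene is given by the brightest of its probe sets over the 6 arrays.

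Cells make cholesterol in the endoplasmic reticulum. Squalene, the linear end product of the mevalonate arm, is oxidised and folded into lanosterol, the first sterol. A run of enzymes then removes 3 methyl groups, moves a double bond within the ring system and reduces others. The genes are textbook targets of SREBP-2, a membrane-bound transcription factor that is released for the nucleus when sterols in the endoplasmic reticulum run low, and the liver is a main site of the pathway in the body.

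The mice were C57BL/6J males aged 8 weeks, and liver mRNA was measured on 6 Affymetrix arrays, with 2 arrays in each of 3 groups: fed wild-type mice, wild-type mice after a 24 h fast, and Cnot3+/- mice after a 24 h fast, all kept on normal chow. Cnot3 encodes a subunit of CCR4-NOT, the complex that shortens mRNA poly(A) tails. Which part of Cnot3 was deleted is not stated, and no group combines Cnot3+/- with feeding. Arrays of 1 group are biological replicates per the labels, which do not tie them to named animals, so p-values measure only the spread between these arrays.

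Values are RMA log2 levels, in which a difference of 1 is a 2-fold change, and array medians ran from 5.59 to 5.64. At or under these medians a level cannot be told from background. All 8 hepatocyte markers lay above the medians, and their summed level stayed between 17.59 and 17.75 (log2) over the 6 arrays. The 8 Kupffer cell markers had summed levels of 12.34 to 12.43 in fed, 12.74 to 12.83 in fasted wild-type and 12.98 to 13.49 in fasted Cnot3+/- liver. Summed markers of sinusoidal endothelium lay between 11.41 and 11.67 on all arrays and those of stellate cells between 12.16 and 12.56. Single markers moved apart within these sums on fasting in wild-type liver. Of 6 stellate markers, Col3a1 (-2.32) and Lrat (-1.20) fell and Dcn (0.61) rose. Col1a1 (-0.65) was also called lower, but it lay under the array medians on all 6 arrays and gives no level. Of 6 endothelial markers, Lyve1 (1.58) rose. These calls used the adjusted p given below, at which 3.15% of all genes fell and 1.87% rose. The 2 measured markers of exocrine pancreas summed to 10.38 to 10.45 in fed and 8.91 to 9.10 in fasted wild-type liver. In fasted Cnot3+/- liver they summed to 9.05 to 9.22. Of these markers, Cela1 fell by 1.45 (SE 0.13) on fasting in wild-type liver. The other, Cpa1, lay under the array medians on all 6 arrays, so the sums rest on Cela1. The part of other cell types in the results below was not tested. Cnot3 itself differed by -0.01 (SE 0.13) between the fasted groups, but as the deleted part is not stated, this does not check the labels, and genotypes are given as labelled. In whole liver, fewer cells of a type and less RNA per cell cannot be told apart.

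Fasting lowered most of the pathway after squalene in wild-type liver. Of the 9 genes, 6 fell and none rose in limma's test at a Benjamini-Hochberg adjusted p under 0.05 over all genes, against 3.15% of all genes that fell and 1.87% that rose. The 6 were Lss, Cyp51, Msmo1, Nsdhl, Sc5d and Dhcr7, and their fasted levels ranged from 12.5% to 34.0% of the fed level. Sqle and Ebp were also lower on every fasted wild-type array than on either fed array, but did not pass. Hsd17b7 stayed level. In 8 of the 9 genes the fasted wild-type arrays lay below both fed arrays without overlap, a state that 23.7% of all genes showed. The median log2 difference of the 9 genes was -1.66, beside 0.02 for all 18193 genes.

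**Figure D1:**
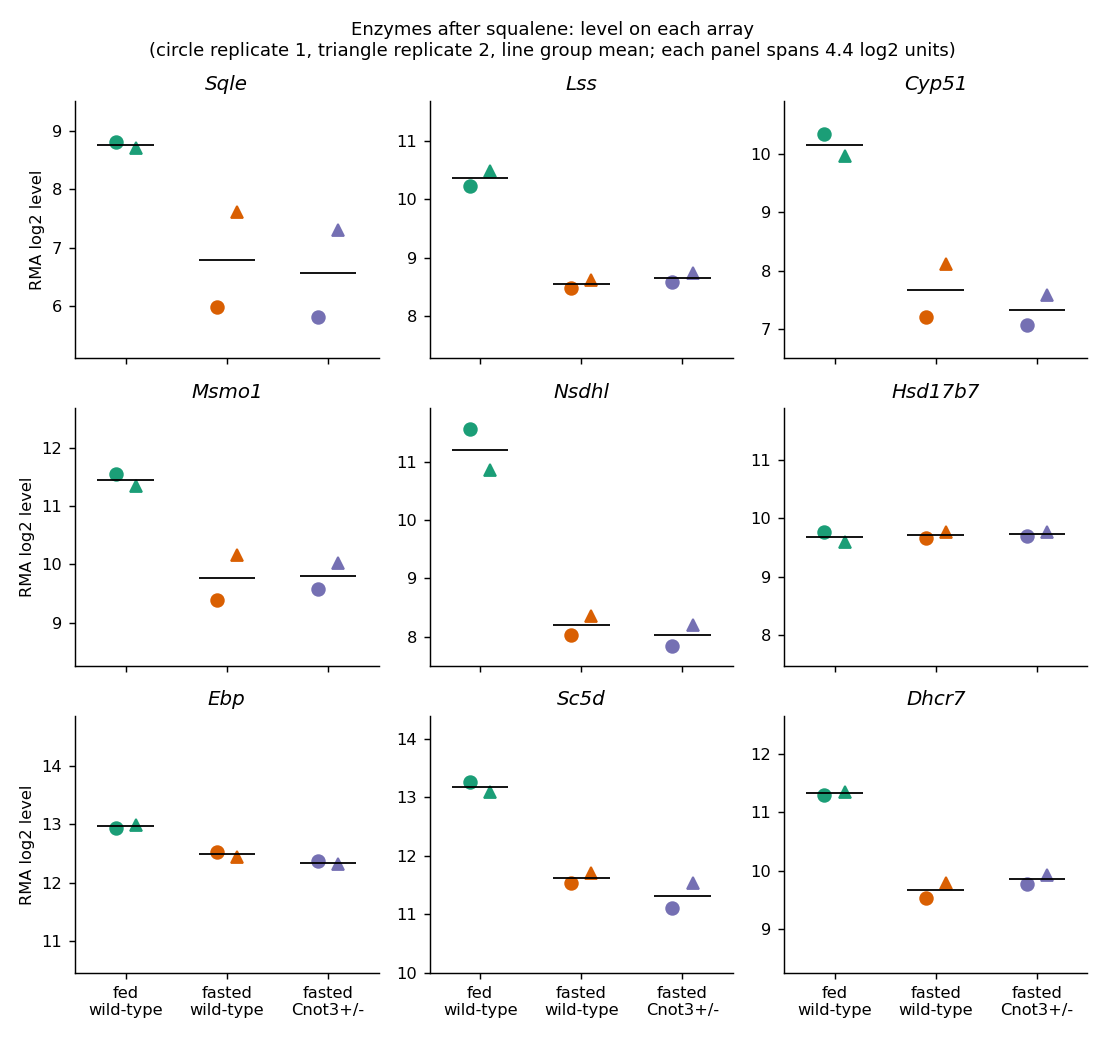
RMA log2 level of each of the 9 genes on each array, by group, with circles for replicate 1, triangles for replicate 2 and a line at the group mean. Fed arrays stand above all 4 fasted arrays in every panel but that of Hsd17b7, and the fasted arrays of Sqle split into a pair near 6 and a pair above 7.

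Sqle, squalene epoxidase, adds the oxygen that starts ring formation and is a rate-limiting step of the pathway. Its level was 8.80 and 8.70 in fed liver, 5.98 and 7.61 in fasted wild-type liver, and 5.82 and 7.31 in fasted Cnot3+/- liver. Both fasted groups lay below the fed arrays, and each held an array 2.80-fold or more below its partner. These lower arrays, at 5.98 and 5.82, lay near the array medians of 5.59 to 5.64, where a level nears background. Sqle has only 1 probe set, so no other one stands beside it. The fasting difference in wild-type liver was -1.96 (log2, SE 0.59, 95% confidence interval -3.35 to -0.57, limma adjusted p = 0.123), which is 25.7% of the fed level. Leaving out fasted wild-type replicate 1 gave -1.14 (adjusted p = 0.462) and leaving out its partner, replicate 2, gave -2.77 (adjusted p = 0.085), so each of these arrays sets much of its size.

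Lss, lanosterol synthase, folds the epoxide into lanosterol. Its level was 10.23 and 10.48 in fed wild-type, 8.49 and 8.62 in fasted wild-type and 8.58 and 8.73 in fasted Cnot3+/- liver. The fasted arrays of both genotypes lay within a narrow band, well under the fed arrays. The fall in wild-type liver was 3.49-fold (log2 -1.80, SE 0.14, limma adjusted p = 0.00212).

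Cyp51, the cytochrome P450 that removes the methyl group at carbon 14 of lanosterol, read 10.35 and 9.96 in fed liver. After fasting it read 7.21 and 8.12 in wild-type and 7.07 and 7.59 in Cnot3+/- liver. No fasted array came near the fed ones. The fall was 5.60-fold (log2 -2.49, SE 0.31, limma adjusted p = 0.00773) and ranked 30 among all 18193 genes, counted from the largest fall.

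The methyl groups at carbon 4 are removed by Msmo1, an oxidase, Nsdhl, a dehydrogenase that also removes the carboxyl group, and Hsd17b7, a keto-reductase, which work as a complex on the scaffold Erg28. The genes of these 4 proteins did not move alike. Nsdhl had the largest fall of the 9 genes: it read 11.56 and 10.85 in fed liver, then 8.03 and 8.36 in fasted wild-type liver and 7.85 and 8.20 in fasted Cnot3+/- liver. That is an 8.03-fold fall in wild-type liver (log2 -3.00, SE 0.25, limma adjusted p = 0.00269), ranked 17 among all genes. Msmo1 read 11.54 and 11.34 in fed, 9.40 and 10.16 in fasted wild-type and 9.58 and 10.02 in fasted Cnot3+/- liver, a 3.17-fold fall (log2 -1.66, SE 0.26, adjusted p = 0.0172). The Msmo1 call did not hold when fed replicate 1 (adjusted p = 0.0805), fed replicate 2 (0.0701) or fasted wild-type replicate 1 (0.0829) was left out.

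Hsd17b7 did not follow its partners. Fed liver read 9.76 and 9.59, fasted wild-type liver 9.66 and 9.76, and fasted Cnot3+/- liver 9.70 and 9.77, so that neither fasted group lay apart from the fed one. The difference in wild-type liver was 0.03 (SE 0.12), and its 95% confidence interval, 83.8% to 125% of the fed level, leaves out falls of the size seen for Msmo1 and Nsdhl. This probe set carries the maker's mark for probes that may also match other transcripts. The next brightest probe set of Hsd17b7, without that mark, read 8.68 and 8.42 in fed and 8.43 and 8.72 in fasted wild-type liver, a difference of 0.02 (SE 0.17, interval -0.39 to 0.43). A dimmer one read 7.66 and 7.52 in fed and 7.95 and 8.30 in fasted wild-type liver, a difference of 0.53 (SE 0.25, adjusted p = 0.353 over all single-gene probe sets). Erg28 differed by -0.46 (SE 0.19, adjusted p = 0.262).

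The last steps of the pathway showed the same contrast between genes. Ebp, the isomerase that moves the ring double bond, read 12.95 and 12.98 in fed, 12.53 and 12.44 in fasted wild-type and 12.37 and 12.32 in fasted Cnot3+/- liver. The groups did not overlap, but the difference in wild-type liver, -0.48 (SE 0.11, limma adjusted p = 0.0631), was small and did not pass. Sc5d, the desaturase that follows, read 13.27 and 13.09, then 11.54 and 11.71, then 11.10 and 11.53 in the same order of groups. Its fall was 2.94-fold (log2 -1.55, SE 0.17, adjusted p = 0.00483), and the call was just missed without fasted wild-type replicate 1 (adjusted p = 0.0561). Dhcr7, the reductase whose loss causes Smith-Lemli-Opitz syndrome in humans, read 11.30 and 11.35, then 9.54 and 9.79, then 9.78 and 9.94, a fall of 3.16-fold (log2 -1.66, SE 0.14, adjusted p = 0.00254).

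The sizes of the falls ran from Nsdhl through Cyp51, Sqle, Lss, Msmo1, Dhcr7 and Sc5d to Ebp and Hsd17b7. The 95% confidence interval of Nsdhl, -3.60 to -2.41, did not overlap those of the brightest probe sets of Lss, Msmo1, Dhcr7, Sc5d, Ebp and Hsd17b7. It did overlap those of Cyp51 and Sqle. The separation depends on the probe set: a dimmer one of Lss (-3.05 to -2.36) and one of Sc5d (-2.81 to -1.77) had intervals that overlapped that of Nsdhl. The intervals of Lss, Msmo1, Dhcr7 and Sc5d overlapped one another, so these 4 neighbours in the order are not set apart by their spread. Differences in size between genes were not tested. Sqle had the widest interval of the 9 genes and Ebp the narrowest.

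**Figure D2:**
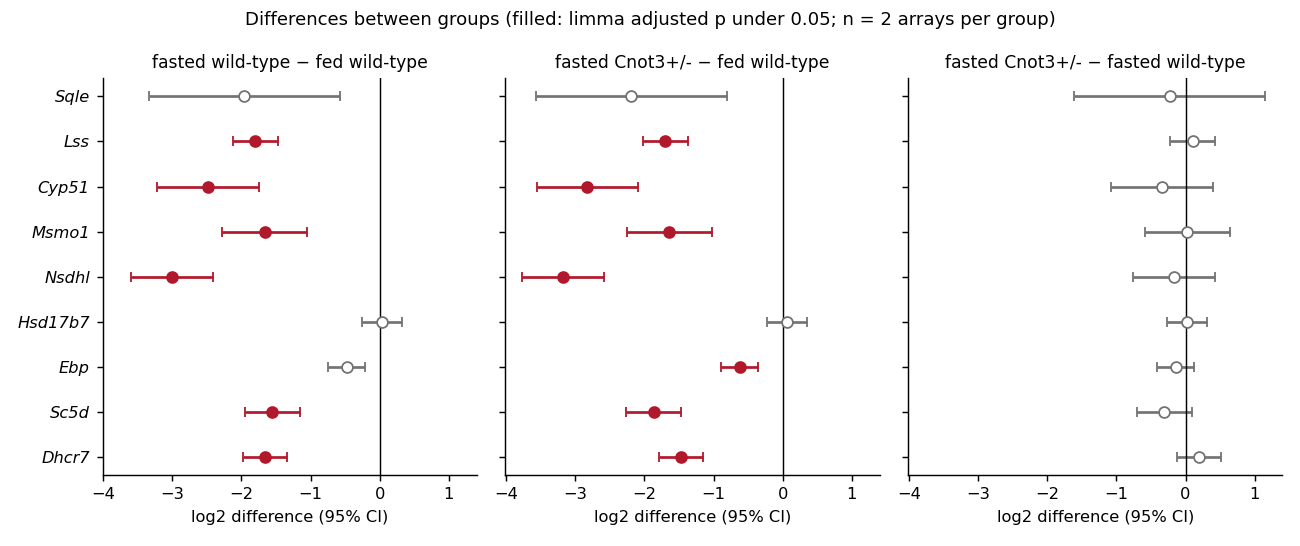
Log2 difference of each gene in the 3 comparisons, with 95% confidence intervals from limma and n = 2 arrays per group, where filled points passed an adjusted p of 0.05. Fasted liver of either genotype lies left of 0 for all genes but Hsd17b7, while every interval of the genotype comparison spans 0.

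Promoter sequence is shown for Cyp51, Lss and Nsdhl, which fell, and for Hsd17b7, which did not. RefSeq start sites on GRCm38.p6 matched 8 of the 9 genes, all but Sqle. The 250 bases before each start are given 5′ to 3′ on the strand of the gene. Capitals mark the CCAAT box, the core letters bound by NF-Y, a factor that works beside SREBPs at many sterol genes, on either strand (CCAAT or ATTGG).
Cyp51, chr5:4104698-4104947, minus strand: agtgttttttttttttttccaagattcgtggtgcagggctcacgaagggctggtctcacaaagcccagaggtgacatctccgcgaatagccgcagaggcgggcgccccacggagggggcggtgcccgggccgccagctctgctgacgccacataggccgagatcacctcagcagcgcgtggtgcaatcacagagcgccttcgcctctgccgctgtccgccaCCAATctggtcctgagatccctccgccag
Lss, chr10:76531355-76531604, plus strand: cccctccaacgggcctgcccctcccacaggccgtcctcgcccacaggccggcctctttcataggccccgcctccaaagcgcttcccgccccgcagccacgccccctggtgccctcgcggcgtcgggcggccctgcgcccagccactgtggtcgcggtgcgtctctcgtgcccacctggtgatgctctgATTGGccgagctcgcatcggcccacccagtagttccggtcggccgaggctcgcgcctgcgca
Nsdhl, chrX:72918271-72918520, plus strand: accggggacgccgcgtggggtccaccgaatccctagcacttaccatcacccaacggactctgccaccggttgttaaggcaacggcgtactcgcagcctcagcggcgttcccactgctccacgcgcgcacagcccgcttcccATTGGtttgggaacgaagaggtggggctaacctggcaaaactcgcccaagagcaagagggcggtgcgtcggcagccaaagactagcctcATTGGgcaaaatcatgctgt
Hsd17b7, chr1:169969206-169969455, minus strand: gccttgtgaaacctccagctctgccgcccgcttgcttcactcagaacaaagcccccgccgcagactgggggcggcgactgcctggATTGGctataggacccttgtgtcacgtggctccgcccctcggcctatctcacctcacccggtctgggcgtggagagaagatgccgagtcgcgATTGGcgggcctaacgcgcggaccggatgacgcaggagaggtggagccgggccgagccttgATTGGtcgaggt

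A CCAAT box was found before at least 1 start site of all 8 genes, against 37.5% of all genes with a start site in the same RefSeq set. It was found for Hsd17b7 and Ebp as well as for the 6 genes that fell. A GC box (GGGCGG or its reverse complement), the core letters bound by Sp1, was likewise found for all 8, against 35.4% of genes. The letters TCACNCCAC, a strict form of the sterol response element, were found on neither strand for any of the 8, against 1.22% of all genes. For letters this rare, no match among 8 genes says little, and looser forms or longer stretches were not searched. Matches of different motifs could overlap, and a match of letters is a description, not a binding site.

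The other probe sets of the members were set beside the brightest. Of the 19 probe sets, 15 had a mean level above every array median, and 10 of these were called lower on fasting when all 34945 single-gene probe sets were tested, of which 2.63% were called in either direction. The 5 that were not called belong to Sqle (1), Ebp (1) and Hsd17b7 (3). All 3 probe sets of Sc5d fell, with log2 differences of -1.20, -1.55 and -2.29. A dimmer probe set of Lss fell from 7.99 to 5.29, under the array medians, so its difference of -2.70 (SE 0.15) is a lower bound in size on a fall larger than that of the brightest one (-1.80). For Cyp51 the brighter probe sets had log2 differences of -2.49 and -2.90, the latter again a lower bound in size, since its fasted mean lay under the medians. The second probe set of Msmo1 lay under the medians on all arrays and gives no level.

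**Figure D3:**
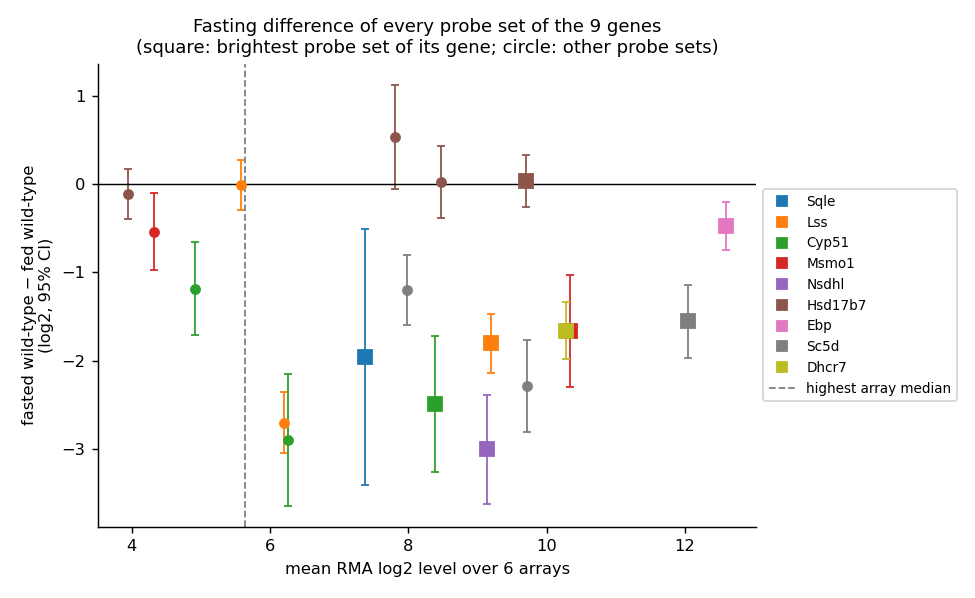
Fasting difference in wild-type liver (log2, 95% confidence interval) against mean level for all 19 probe sets of the 9 genes, with squares for the brightest probe set of each gene. To the right of the dashed line, the highest array median, the 3 probe sets of Hsd17b7 lie at or above 0 and all others lie below it.

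The genes around the 9 were read from lists of the neighbouring steps. The list counts below stand beside 3.15% of all genes that fell and 1.87% that rose on fasting in wild-type liver. Of 7 measured genes of the mevalonate arm, which builds squalene, 6 fell on fasting and none rose, with a median of -1.43. Idi1, the isomerase of isopentenyl diphosphate, fell by 3.33 (SE 0.30) and Fdps, farnesyl diphosphate synthase, fell by 3.26 (SE 0.40). Hmgcs1, the synthase that opens the arm, fell by 1.39 (SE 0.17), Mvk, mevalonate kinase, fell by 0.88 (SE 0.13), and Pmvk, the next kinase, fell by 1.43 (SE 0.13). Fdft1, squalene synthase, which feeds Sqle, fell by 1.59 (SE 0.26). With the mean over all probe sets of a gene, Fdft1 differed by -0.68 (adjusted p = 0.0646) and Mvk by -0.53 (adjusted p = 0.0983), so both calls depend on the probe set. Mvd differed by -0.97 (SE 0.31, limma adjusted p = 0.137). Of 3 other genes of the steps after squalene, Lbr, a sterol reductase of the inner nuclear membrane, fell by 0.92 (SE 0.17), and Tm7sf2, which reduces the same bond, differed by -0.26 (SE 0.16, adjusted p = 0.468).

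Several enzymes of the pathway draw electrons from partner proteins. Of 4 measured partners, 2 fell and none rose, with a median of -0.69. Cyb5b, an outer mitochondrial membrane cytochrome b5, read 12.73 and 12.71 in fed and 11.14 and 11.33 in fasted wild-type liver and fell by 1.48 (SE 0.12, limma adjusted p = 0.00254). Cyb5a, the cytochrome b5 of the endoplasmic reticulum that serves Msmo1 and Sc5d, read 14.23 and 14.15, then 14.12 and 14.09, a difference of -0.09 (SE 0.11). Cyb5r3, the reductase that loads cytochrome b5, fell by 1.17 (SE 0.15) on a probe set that may match several transcripts, while its brightest probe set without that mark differed by 0.08 (adjusted p = 0.824). Pgrmc1, a haem protein that binds Cyp51, differed by -0.21 (SE 0.11).

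Of 8 measured genes that control SREBPs, Srebf1 and Insig1 fell, Insig2 rose and 5 did not pass, with a median of -0.07. Srebf2, which encodes SREBP-2, read 8.88 and 9.01 in fed, 8.74 and 8.93 in fasted wild-type and 8.79 and 8.62 in fasted Cnot3+/- liver, a fasting difference of -0.10 (SE 0.13). Srebf1, which encodes SREBP-1, fell by 4.67 (SE 0.19). Insig1 and Insig2 both hold the SREBP escort Scap in the endoplasmic reticulum: Insig1, itself an SREBP target, fell by 1.63 (SE 0.20), and Insig2 rose from 11.50 to 13.17 (log2 1.67, SE 0.12, limma adjusted p = 0.0018). Scap differed by 0.39 (SE 0.11, adjusted p = 0.114), and Marchf6, a ubiquitin ligase that marks the Sqle protein for breakdown, by 0.33 (SE 0.12, adjusted p = 0.172).

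The genes that move or spend cholesterol gave few calls. Of 5 measured uptake and transport genes, Stard4, a carrier of cholesterol in the cytosol, fell by 2.15 (SE 0.26), while Mylip, a ligase that degrades lipoprotein receptors, rose by 0.81 (SE 0.15) and Npc1, which exports cholesterol from lysosomes, rose by 0.63 (SE 0.13). Lrp1, a lipoprotein receptor, differed by -0.39 (SE 0.24). Of 10 measured genes of sterol fate, Cyp8b1, the sterol 12-alpha-hydroxylase, rose by 2.38 (SE 0.13) and 9 did not pass. Of these 10 genes, 7 had a difference below 0, and 5 were lower without overlap, beside 23.7% of all genes. Cyp7a1, the rate-limiting enzyme of bile acid synthesis, read 11.47 and 12.46 in fed and 8.14 and 10.00 in fasted wild-type liver (difference -2.89, SE 0.65, limma adjusted p = 0.052). Abcg5, part of the canalicular sterol exporter, differed by -0.86 (SE 0.20, adjusted p = 0.0619), and Cyp7b1, the oxysterol hydroxylase, by -0.86 (SE 0.23, adjusted p = 0.0843). Cyp7a1 passed under some alternatives, such as centring on brighter genes (adjusted p = 0.0316) and the fit of the compared groups alone (0.0468), and so did Abcg5, such as with a variance trend (0.0419). With single arrays of the compared groups left out, Mvk, Lbr, Mylip and Npc1 lost their calls each time (adjusted p from 0.0531 to 0.214). Hmgcs1 and Insig1 lost them when fasted wild-type replicate 1 (0.0812 and 0.0636) or its partner, replicate 2 (0.0503 and 0.0573), was left out. Fdft1 lost its call without fed replicate 1 (0.085) or fed replicate 2 (0.0882), and Cyb5r3 without fasted wild-type replicate 1 (0.0818).

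**Figure D4:**
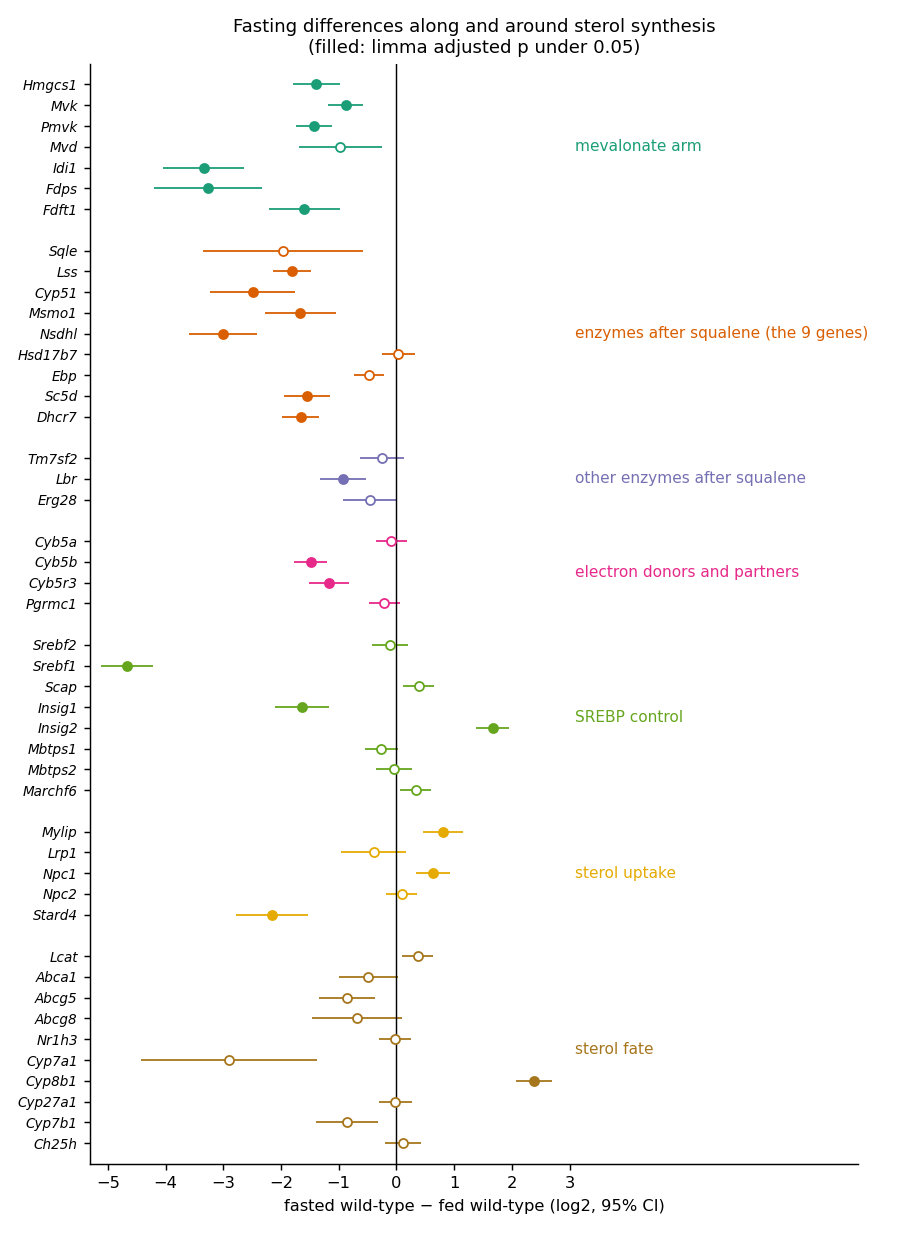
Fasting difference in wild-type liver (log2, 95% confidence interval) for the 9 genes and 37 measured genes of neighbouring steps, grouped by role, with filled points past an adjusted p of 0.05. The 2 arms of sterol synthesis lie left of 0 except for Hsd17b7, while Insig2, Mylip, Npc1 and Cyp8b1 are filled to the right.

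The fasted genotypes were then compared. None of the 9 genes passed between fasted Cnot3+/- and fasted wild-type liver, and limma called 0 of the 18193 genes at an adjusted p under 0.05 (1011 genes, 5.56%, had an unadjusted p under 0.05). The differences of the 9 genes ran from -0.34 for Cyp51 to 0.19 for Dhcr7, with 5 below 0 and 4 above it and a median of -0.14, beside 0.00 for all genes. The median turned to 0.12 without fasted wild-type replicate 2 and to 0.05 without fasted Cnot3+/- replicate 1, so it has no settled direction. None of the 37 genes of neighbouring steps passed either, with Cyp7a1 at 1.18 (SE 0.65, adjusted p = 0.865), Stard4 at -0.70 (SE 0.26, adjusted p = 0.863) and Npc1 at 0.47 (SE 0.13, adjusted p = 0.863).

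The precision of this comparison differed from gene to gene. For Lss the fasted Cnot3+/- level was 107% of the fasted wild-type level with a 95% confidence interval from 85.6% to 135%, and for Dhcr7 114% (91.5% to 142%). For Ebp it was 90.6% (75.3% to 109%) and for Hsd17b7 102% (83.2% to 124%). This Hsd17b7 probe set may match other transcripts. Of its probe sets without that mark, the brightest stood at 82.6% (62.3% to 109%) and a dimmer one at 75.8% (50.3% to 114%). The intervals of Nsdhl, Sc5d and Msmo1 ran from 59.0% to 134%, 61.3% to 107% and 66.6% to 156%. All of these intervals leave out a 2-fold difference either way. That of Cyp51, 47.4% to 132%, does not leave out a 2-fold fall. For Sqle the interval ran from 32.6% to 223%, which does not leave out a 2-fold difference in either direction. Sc5d and Ebp were lower on both Cnot3+/- arrays than on either fasted wild-type array, a state that 18.5% of all genes showed. Sc5d differed by -0.31 (SE 0.17, limma adjusted p = 0.865), and its other probe sets by -0.48 and -0.36, and Ebp by -0.14 (SE 0.11, adjusted p = 0.876).

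Against the same fed arrays, 7 of the 9 genes were lower in fasted Cnot3+/- liver at an adjusted p under 0.05 and none was higher, beside 3.68% of all genes that were lower and 3.88% that were higher. In 8 of the 9 the arrays did not overlap and were lower, beside 23.4% of all genes. In this comparison 4 of the 8 Kupffer cell markers were higher, and their part in it was not tested. These comparisons share the fed arrays, so their likeness is no separate result. Set side by side, the fasted Cnot3+/- and fasted wild-type levels were 11.1% and 12.5% of the fed level for Nsdhl. They were 14.1% and 17.8% for Cyp51, 30.7% and 28.6% for Lss, and 36.1% and 31.6% for Dhcr7. Ebp passed in the Cnot3+/- comparison only (65.2% of the fed level, log2 -0.62, SE 0.11, limma adjusted p = 0.0218), though its difference between the fasted genotypes did not pass. It did not pass with any 1 of the 6 arrays left out (adjusted p from 0.0508 to 0.1). Msmo1 also lost its call there without fed replicate 1 (0.0666), fed replicate 2 (0.054) or Cnot3+/- replicate 1 (0.0531). Sqle stood at 21.9% of the fed level (log2 -2.19, SE 0.59, adjusted p = 0.0737) and passed without Cnot3+/- replicate 2 (-2.93, 0.0497) but not without Cnot3+/- replicate 1 (-1.45, 0.224).

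Among fasted livers, part of the pathway differed between arrays of the same group. The arrays numbered 1 and 2 differed at Sqle by 1.63 (log2) in fasted wild-type and by 1.49 in fasted Cnot3+/- liver, against 0.10 in fed liver. In the fasted groups these gaps were larger than those of 99.9% and 99.8% of all genes. The array numbered 1 was the lower one in both fasted groups at Sqle, Cyp51, Msmo1, Nsdhl, Sc5d, Dhcr7, Lss and Hsd17b7, and the higher one at Ebp. Over all 18193 genes this gap correlated at 0.45 between the fasted groups, so a shared direction was not particular to the pathway. The share of all genes that were lower on array 1 in both fasted groups was not counted. The gap was 0.91 and 0.52 for Cyp51, 0.76 and 0.44 for Msmo1, and 0.33 and 0.35 for Nsdhl. At Lss it was 0.13 and 0.16, near the medians of all genes, which were 0.14 and 0.17. At Hsd17b7 it was 0.10 and 0.06, under those medians. Differences in spread between genes were not tested.

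**Figure D5:**
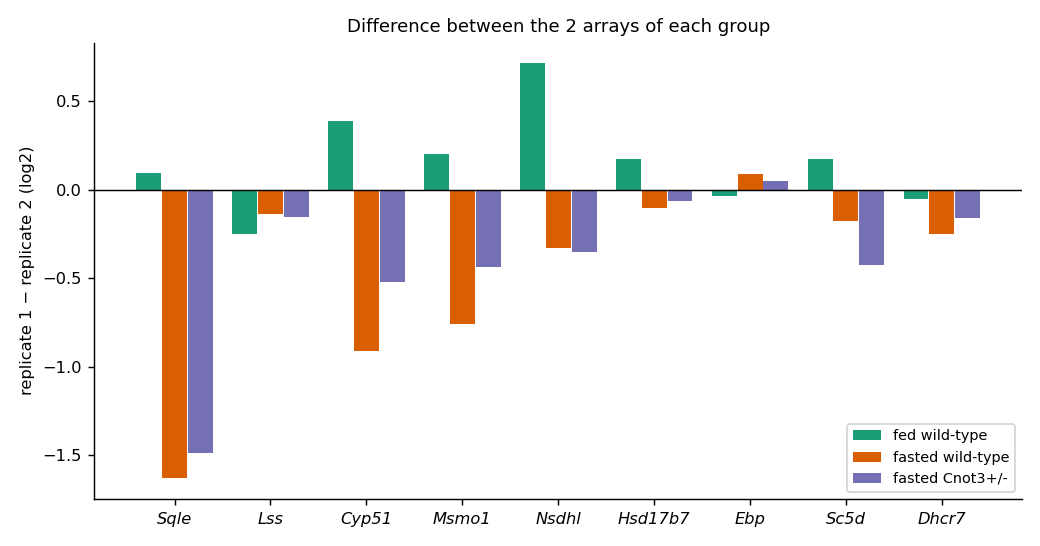
Level on the array numbered 1 minus that on the array numbered 2 (log2) within each group, for each of the 9 genes. The bars of both fasted groups point down for all genes but Ebp, and are longest for Sqle at -1.63 and -1.49.

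A sign of RNA quality moved with this gap. The difference between 3′ and 5′ control probe sets of pyruvate carboxylase was 2.67 and 1.87 (log2) on fasted wild-type arrays 1 and 2, and 4.12 and 2.81 on Cnot3+/- arrays 1 and 2, so it was larger on the arrays where Sqle was lower. For beta-actin it was 0.58 and 0.43, then 1.06 and 0.53. On the fed arrays it was 3.29 and 3.25 for pyruvate carboxylase and 0.61 and 0.62 for beta-actin. Its part in the gap was not tested.

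Genes whose pattern was most like that of the 9 were taken from 1443 other genes brighter than the median gene with a range of at least 1 (log2). Likeness was Pearson's r over the 6 arrays with the mean centred level of the 9 genes. That mean stood at 1.19 and 1.03 in fed, -0.74 and -0.28 in fasted wild-type and -0.80 and -0.41 in fasted Cnot3+/- liver, so most of r reflects the gap between 2 fed and 4 fasted arrays. The 10 most alike were Tmem41b, Fdps, Rdh11, Ddost, Gstm3, Tmem14a, Sec23b, Idi1, Actn1 and Jpt2, with r from 0.992 to 0.999. Tmem41b depends on the probe set: its fasting difference was -1.04 on the brightest one. With the mean over its probe sets it was -0.33 (limma adjusted p = 0.208). Fdps and Idi1 are enzymes of the mevalonate arm, Rdh11 is a retinol dehydrogenase, and Sec23b is a coat protein of vesicles that leave the endoplasmic reticulum. Fdps read 12.22 and 11.91, then 8.21 and 9.38, then 7.92 and 8.71. The 5 most opposite were Vnn1, Lbp, Nrbp2, Hykk and Serpina3n, with r from -0.998 to -0.986. Vnn1, the pantetheinase vanin-1, read 10.58 and 10.61, then 12.58 and 12.10, then 12.76 and 12.29. The alike and opposite genes were picked by r over these same 6 arrays. That their arrays follow or mirror the mean of the 9 genes is therefore set by the choice and is no separate result. Within the 9, r with the mean, to which each gene contributes, was 0.927 or more except for Hsd17b7 at -0.18.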

How the data were processed

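Liver RNA was read on 6 Affymetrix arrays. Per the labels' protocols, total RNA came from ISOGEN extraction and an RNeasy column, and 10 ug per sample was used. The deposited values are log2 levels that the authors computed by RMA (version not given in the sources used here), per the submitters' processing notes, and they were used as deposited. Of 45101 probe sets, 64 are controls, 34945 name 1 gene, 932 name several and 9160 are unnamed here. Of the 18193 genes, 18145 had their symbol in RefSeq's GRCm38.p6 table, used for names.

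limma 3.58.1 (R 4.3.3) fitted 3 group means to all 6 arrays (residual df 3, prior df 4.24), with Benjamini-Hochberg adjustment over all genes per comparison. SE is the moderated standard error. The fit was tested on simulated data. The 9 genes and all lists were chosen with earlier results of these data known. Of 48 list genes outside the 9, 37 were measured and 11 are not analysed here. The naming rule took the 9 genes, Srebf2 and Insig1 always, up to 4 genes per list with the smallest p in a comparison, allowed any other list gene, and took the 10 most alike and 5 most opposite genes. Alternatives covered the probe set choice, normalisation, level filter, variance model, arrays in the fit, replicate block and single arrays left out. Figures used matplotlib 3.10.9 on Python 3.11.15.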

Additional observations from a re-analysis of the deposited data

How the results depend on the processing

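The number of the 9 genes that passed stayed between 4 and 7 for fasting in wild-type liver (6 as reported), at 0 for genotype and between 5 and 8 for fasted Cnot3+/- against fed liver (7 as reported). Lss, Cyp51, Nsdhl and Dhcr7 passed under all 15 alternatives in both fasting comparisons. Leaving out an array of the group not compared repeats the fit of the compared groups alone, so the 15 are not all different fits. Msmo1 did not pass when probe sets with a suffix were left out, which leaves its dim probe set (-0.54, adjusted p = 0.162). Ebp passed for fasting in wild-type liver with the mean over probe sets (limma adjusted p = 0.0448) and with a variance trend (0.0285). As Ebp has only 1 probe set, its difference was -0.48 in both, and only the variance estimate and the adjustment changed. Cyb5r3 changed sign without suffixed probe sets, to 0.0838.

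Arrays share the numbers 1 and 2 across groups, but the labels state no pairing. The correlation of deviations over genes was 0.04 and -0.01 between fed and fasted groups and 0.45 between the fasted groups. With the replicate block, the counts among the 9 genes were 7, 0 and 8, Sqle passed in both fasting comparisons (adjusted p = 0.0397 and 0.023), and 1206, 0 and 1708 genes were called in all. With the block on the 4 fasted arrays alone, chosen after seeing the data, 18 genes were called for genotype and none of the 9.

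Over all genes, 913 were called for fasting in wild-type liver, with 137 to 1033 when single arrays were left out (lowest without fasted wild-type replicate 1). For genotype the range was 0 to 2. For fasted Cnot3+/- against fed liver 1375 were called, with 597 to 929 when single arrays were left out (lowest without fed replicate 2) and 857 with only the compared groups. With 2 arrays per group, the size of difference that can be called depends on the spread of each gene. For fasting in wild-type liver, neither Ebp (-0.48, SE 0.11) nor Sqle (-1.96, SE 0.59) passed.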
